A study of Ambystoma mexicanum with 12 samples.

Results

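Wrist-level blastemas of axolotls (Ambystoma mexicanum) kept with 1 uM talarozole (TAL) were compared with wrist-level blastemas of axolotls kept with 0.1 uM TAL. The comparison holds 6 of the 12 RNA-seq libraries of the study, 3 per dose, picked by their sample titles. It was read in the gene identifiers that begin with AMEX60DD but not with AMEX60DDU, which are 56805 of the 99081 identifiers in the table. Of these, 21537 passed the filter on low counts and 20731 had no count in any of the 6 TAL libraries.

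All animals were white (d/d) axolotls, 3 months old and 5 cm long. TAL dissolved in DMSO, or DMSO alone, was in the housing water from day 4 after amputation over 7 days, and blastemas were frozen on day 14. The libraries used here are distal blastemas (amputation through the wrist) at 1 uM TAL, at 0.1 uM TAL and with DMSO, and proximal blastemas (amputation through the upper humerus) with DMSO, 3 of each. Each library is a pool of 3 blastemas, so the spread between libraries is a spread between pools. The labels do not say whether an animal gave more than 1 blastema or whether pools shared a tank.

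A blastema is the bud of dividing cells that replaces a lost limb part in salamanders. Retinoic acid, made from vitamin A, acts through nuclear receptors that switch target genes on or off. It is broken down by the CYP26 enzymes, and TAL blocks these enzymes, so that less retinoic acid is cleared. Added retinoic acid is known to make wrist-level axolotl blastemas regrow parts of the upper limb. The study asked how a rise in the tissue's own retinoic acid bears on patterning along the limb. The dose comparison asks which genes differ in level on day 14 between wrist-level blastemas of axolotls given 7 days at the higher or the lower dose. Levels were thus read after the treatment and not during it.

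The deposited table gives identifiers and no gene names, and 0 of them matched the RefSeq gene list for the species. Genes are therefore given by identifier, at most 2 in each direction per comparison, and no role, sequence or marker check of the tissue can be given. Levels are CPM, a gene's share of the TMM-scaled library total multiplied by 1000000. Since transcript length is not known here, levels are compared between libraries and not between genes.

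The 1 uM libraries held between 11977855 and 13937318 counts, against 8652567 to 10940100 in the 0.1 uM libraries, so every 1 uM library was deeper than every 0.1 uM library. Spearman correlations of log2 CPM across the tested genes, which are not independent replicates, were 0.896 to 0.913 for the 3 pairs within 1 uM, 0.863 to 0.897 for the 3 pairs within 0.1 uM and 0.850 to 0.890 for the 9 pairs between doses. Libraries of the same dose differed from each other by more than counting noise (chi-square divided by its degrees of freedom, 9.56 to 97.0 over the 6 pairs). Within-group variation, as the median SD of log2 CPM over the genes, was 0.243 at 1 uM, 0.346 at 0.1 uM and 0.363 with DMSO distal. The 1 uM libraries were also the deeper ones, so dose and depth cannot be told apart in this difference.

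In 1 uM replicate 1, the most abundant genes were far lower than in the other TAL libraries. The 10 most abundant AMEX60DD genes took 3.56% of its counts (95% Wilson interval 3.55 to 3.57%) and 14.6% and 14.3% in the other two 1 uM libraries. In the 0.1 uM libraries these genes took 12.6%, 15.7% and 20.5%. The most abundant of them, AMEX60DD016881, was at 2923, 39529 and 39905 CPM at 1 uM and at 29031, 40260 and 59963 CPM at 0.1 uM. The doses overlapped in the joint share of these genes (exact two-sided permutation p 0.4). With 3 libraries per dose this test cannot give a p under 0.1, so it cannot show that the doses are alike. In DMSO distal libraries the share was 7.43 to 23.6%. The part of this library's composition in the results below was not tested, and the values of the called genes without it are given beside them.

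**Figure D1:**
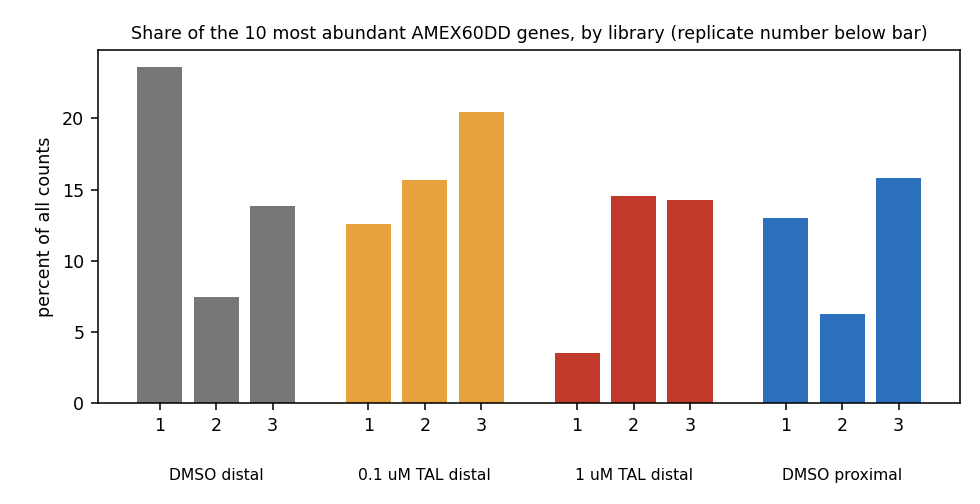
Share of all counts (percent, vertical axis) taken by the 10 AMEX60DD genes that are most abundant in the TAL libraries, 1 bar per library, by group and replicate number. 1 uM TAL replicate 1 has the lowest bar at 3.56%, and DMSO distal replicate 1 the highest at 23.6%.

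The 4 genes called between the doses with edgeR were lower at 1 uM. In the fit of all identifiers (edgeR quasi-likelihood test, Benjamini-Hochberg adjusted p under 0.05 over all 41884 genes tested) 4 of the 21537 AMEX60DD genes were called, 0.0186% of them, against 0.0119% of all identifiers. All 4 were lower at 1 uM, by 2.92 to 4.45 on the log2 scale, and 0 were higher, with 1251 genes higher and 403 lower at an unadjusted p under 0.05. Other tests called more genes, and in both directions: 116 higher and 137 lower with DESeq2, and 16 higher and 28 lower with limma voom. All 4 genes were among those called with DESeq2, but only 2 of them with limma voom. AMEX60DD021956 and AMEX60DD012191, described below, were not called with limma voom (adjusted p 0.0702 and 0.0502). When only the 6 libraries compared were fitted, edgeR called 0 genes, with 1977 at an unadjusted p under 0.05. In whole tissue, fewer cells of a type and less RNA per cell cannot be told apart.

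AMEX60DD021956 was at 0.392, 0.693 and 0.257 CPM in the 1 uM libraries, against 12.7, 8.19 and 9.29 CPM in the 0.1 uM libraries. Its highest 1 uM library was thus far below its lowest 0.1 uM library, but a lack of overlap was a condition for naming a gene. The 1 uM levels rest on 6, 9 and 3 counts, the last of them at the floor of 3 counts per library. It averaged 0.447 ± 0.223 CPM at 1 uM and 10.1 ± 2.38 CPM at 0.1 uM (SD, n = 3 each), which is -4.45 as a log2 fold change (SE 0.474, adjusted p 0.0388 by edgeR). Without 1 uM replicate 1 it was -4.38 (adjusted p 0.261 by edgeR). With DMSO, distal libraries held 16.2, 11.3 and 10.4 CPM, a range that overlaps the 0.1 uM libraries, while proximal libraries held 1.42, 0.775 and 0.608 CPM.

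AMEX60DD012191 was at 1.04, 0.847 and 0.943 CPM in the 1 uM libraries, against 14.2, 10.3 and 7.35 CPM in the 0.1 uM libraries. The 1 uM libraries lay close together and the 0.1 uM libraries spread nearly 2-fold. The lack of overlap between doses was again a condition of choice. The log2 fold change was -3.47 (SE 0.338, adjusted p 0.0236 by edgeR), and -3.57 (adjusted p 0.171 by edgeR) without 1 uM replicate 1. DMSO distal libraries were at 11.9, 18.5 and 10.5 CPM and again overlapped the 0.1 uM libraries. DMSO proximal libraries were at 1.33, 1.03 and 1.46 CPM, near the 1 uM level.

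The remaining pair of called genes was also lower at 1 uM than at 0.1 uM, with 0.1 uM means near the DMSO distal means. One averaged 8.90 ± 1.79 CPM at 1 uM and 67.3 ± 22.6 CPM at 0.1 uM (SD, n = 3 each), with 59.8 ± 6.55 CPM in DMSO distal libraries. The other averaged 1.20 ± 0.375 CPM at 1 uM and 10.7 ± 3.51 CPM at 0.1 uM (SD, n = 3 each), with 12.8 ± 0.911 CPM in DMSO distal libraries. In DMSO proximal libraries the first averaged 9.94 ± 2.34 CPM, near its 1 uM level. The second averaged 3.36 ± 0.734 CPM there, with each proximal library above each 1 uM library. Without 1 uM replicate 1 the first was at -3.11 (log2 fold change, adjusted p 0.114 by edgeR) in place of -2.92, and the second at -3.26 (adjusted p 0.261 by edgeR) in place of -3.14. In each of the 4 genes the 0.1 uM mean was within 0.36 of the DMSO distal mean on the log2 scale.

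No gene was called higher at 1 uM in the fit of all identifiers. Among genes higher at 1 uM with a mean of at least 1 CPM at either dose and no overlap between doses, AMEX60DD016524 had the smallest unadjusted p. It was at 29.6, 28.5 and 47.4 CPM in the 1 uM libraries, against 3.27, 2.97 and 5.41 CPM in the 0.1 uM libraries. Its lack of overlap between doses was thus a condition of its choice. The log2 fold change was 3.17 (SE 0.441, adjusted p 0.0938 by edgeR). Without 1 uM replicate 1 it was 3.26 (adjusted p 0.272 by edgeR). AMEX60DD044347, the next by p, was at 0.914, 2.08 and 2.23 CPM at 1 uM and had 0 counts in each 0.1 uM library. Set against a floor of 3 counts per library, its 1 uM mean was at least 4.89-fold higher (adjusted p 0.104 by edgeR, and 0.272 without 1 uM replicate 1). It was present with DMSO too, at 2.83, 1.30 and 2.46 CPM in distal libraries, so that only the 0.1 uM group lacked it among the 4 groups.

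**Figure D2:**
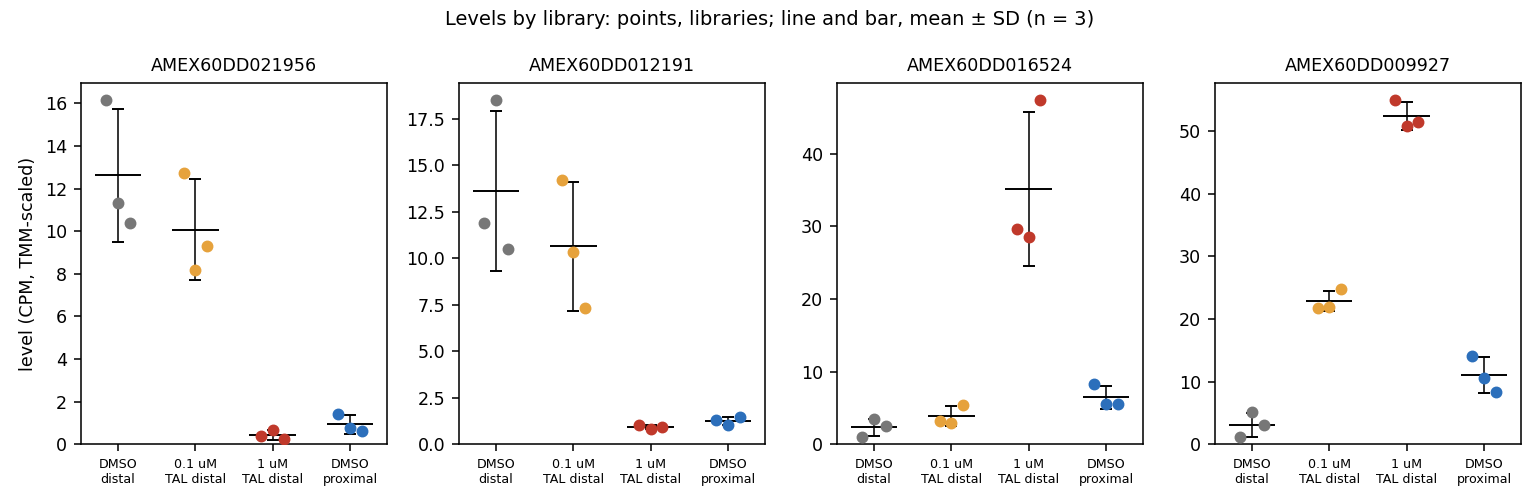
Level (CPM, TMM-scaled, axis from 0) of 4 genes by group. Points are libraries, the line and bar are the mean ± SD (n = 3). AMEX60DD021956 and AMEX60DD012191 are near the DMSO distal level at 0.1 uM TAL. At 1 uM TAL they average 0.447 and 0.945 CPM, against 0.935 and 1.27 CPM in DMSO proximal libraries. AMEX60DD016524 is high only at 1 uM among these groups, and AMEX60DD009927 stands higher at each dose step.

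How many genes were called depended on the AMEX60DDU identifiers, which make up the rest of the 41884 genes tested. With them in the fit, the common biological coefficient of variation was 1.01 and the median AMEX60DD gene was 0.13 higher (log2) at 1 uM. With the fit restricted to AMEX60DD identifiers, the coefficient was 0.548, the median shift was -0.01, and 40 of 21504 genes were called, 0.186%. Of these 40, 6 were higher and 34 lower at 1 uM (0.0279% and 0.158% of the genes tested), and the 4 genes above were among the 34. All 40 calls were lost when only the 6 libraries compared were fitted (0 called, 2347 genes at an unadjusted p under 0.05). That fit also changed the filter, with 19311 genes tested, and the cause of the loss was not tested. Of the 40 genes, restricted fits that left out 1 library called between 0 (without 1 uM replicate 1) and 36 (without DMSO proximal replicate 2). The lists of 34 and 6 genes below are those of the restricted fit of 12 libraries. An unadjusted p under 0.05 was reached by 937 genes that were higher and 1002 that were lower, against 1075.2 expected in all. The counts changed when 1 library was left out, which also enlarged the set of AMEX60DD genes tested to 23082 to 23469, or 23190 to 23571 in the restricted fit. With all identifiers the count was 0 without any 1 of 10 of the 12 libraries. It was 1 without 1 uM replicate 3, a gene that was none of the 4 above. Without 0.1 uM replicate 3 it was 13, with all 4 among them. At an unadjusted p under 0.05 these omissions left 860 to 2258 genes. In the restricted fit it was 0, 5 and 2 without 1 uM replicate 1, 2 and 3, and 6, 12 and 72 without 0.1 uM replicate 1, 2 and 3. Without DMSO distal replicate 1, 2 and 3 it was 18, 23 and 21, and without a DMSO proximal library 28 to 40. With the set of genes kept fixed, a setting chosen after seeing the data, the counts with all identifiers were again 0 for the same 10 libraries and 1 without 1 uM replicate 3, and 17 without 0.1 uM replicate 3. In the restricted fit they were then 3, 5 and 2 without 1 uM replicate 1, 2 and 3, and 6, 12 and 88 without 0.1 uM replicate 1, 2 and 3. The fold changes of the named genes moved little by comparison, from -4.98 to -4.26 for AMEX60DD021956 and from -3.68 to -3.22 for AMEX60DD012191 over the 12 omissions.

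The 34 genes lower at 1 uM in the restricted fit had a median log2 fold change of -2.42, against -0.01 over all 21504 genes. The change was -4.59 to -0.53 among the 33 of them with counts at both doses, and 1 gene had 0 counts in all 3 1 uM libraries. None of the 34 was among the 984 genes that averaged 100 CPM or more over the 12 libraries. With 0.158% of all genes called lower, a class of 984 genes could hold none without differing from the rest. Of the 40 called genes, 23 were among the 5889 genes that averaged 10 to 100 CPM. The other 17 were among the 12714 genes that averaged 1 to 10 CPM. The median SE of a log2 fold change was 0.181 in the first of these classes and 0.418 in the second, so that smaller changes could be resolved in the first. The 6 genes higher at 1 uM had a median log2 fold change of 1.26 (0.65 to 3.66), and AMEX60DD016524 was among them (log2 fold change 3.03, SE 0.383, adjusted p 0.0188 by edgeR).

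**Figure D3:**
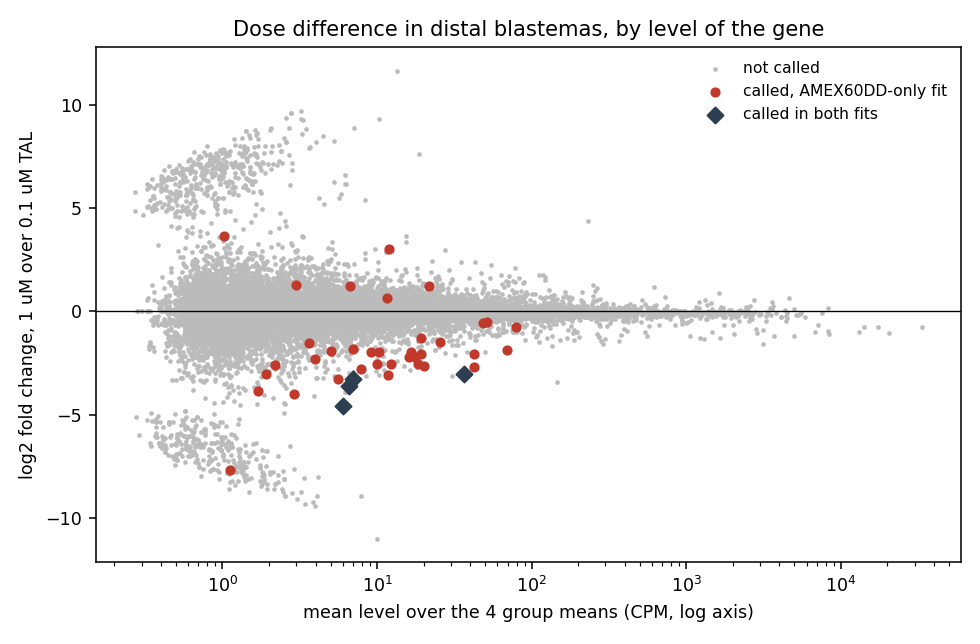
Log2 fold change of 1 uM over 0.1 uM TAL (vertical axis) against the mean level (CPM, log axis) for the AMEX60DD genes tested. Diamonds are the 4 genes called in both fits, circles the other 36 genes called in the AMEX60DD-only fit, and grey points genes not called. Called genes lie below the zero line in 34 of 40 cases, and the grey groups far above and below it are genes with no or almost no counts at one dose, whose fitted values depend on the prior count.

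Large differences between doses that were not called were common. Among genes averaging at least 1 CPM at either dose, 1371 were at least 2-fold higher at 1 uM in the restricted fit. A further 1660 were at least 2-fold lower, and of these groups 5 and 31 genes were called. For 0.1 uM against DMSO distal the numbers were 1105 higher and 1539 lower, with 0 called. For 1 uM against DMSO distal they were 1065 and 1794, so such counts are not particular to the dose comparison. With a mean of at least 1 CPM at either dose again required, all 3 libraries of one dose lay above all 3 of the other for many genes. These were 2124 genes higher (9.88%) and 1983 genes lower (9.22%) at 1 uM, as shares of the genes tested. With TMM factors from all identifiers these counts were 3840 (17.8%) and 928 (4.31%), so the balance of directions depended on the scaling. Presence in one dose alone was also seen in both directions. There were 48 genes with 0 counts in every 1 uM library and at least 5 in each 0.1 uM library, and 90 genes with the reverse. After all libraries were thinned to the smallest total, the numbers were 42 and 66. By the same rule without thinning, 52 genes were absent at 1 uM but present with DMSO distal, and 83 the reverse. For 0.1 uM against DMSO distal the numbers were 70 and 46, so such counts are not particular to the dose comparison.

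To place the dose difference, each dose was set beside DMSO distal blastemas. These 2 comparisons share the DMSO distal libraries, so their values stand side by side and no overlap is tested. At 1 uM, 8 of 21537 AMEX60DD genes were called (0.0371%, against 0.0239% of all identifiers), 2 higher (0.00929%) and 6 lower (0.0279%) than with DMSO. The restricted fit called 52 of 21504 (0.242%), 17 higher (0.0791%) and 35 lower (0.163%). Without 1 uM replicate 1, 2 and 3 the counts were 0, 0 and 1 with all identifiers and 5, 6 and 6 in the restricted fit. Without DMSO distal replicate 1, 2 and 3 they were 2, 2 and 0 with all identifiers and 8, 16 and 11 in the restricted fit. Without 0.1 uM replicate 1, 2 and 3, which are in neither arm, they were 7, 0 and 10 with all identifiers and 28, 35 and 62 in the restricted fit. Without DMSO proximal replicate 1, 2 and 3 they were 3, 0 and 0 with all identifiers and 39, 57 and 51 in the restricted fit. Where the count was 0, 735 to 1212 genes had an unadjusted p under 0.05. These omissions enlarged the set of genes tested in the same way. With the set kept fixed the restricted fit called 5, 7 and 6 without 1 uM replicate 1, 2 and 3, and 8, 16 and 13 without DMSO distal replicate 1, 2 and 3. When only the 6 libraries compared were fitted, 0 genes were called with all identifiers (1318 at an unadjusted p under 0.05) and 83 in the restricted fit.

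At 0.1 uM both fits called 0 genes (edgeR), with 732 and 1348 genes at an unadjusted p under 0.05. Without AMEX60DDU identifiers the lowest adjusted p at 0.1 uM was 0.0732. Other tests on all identifiers called 41 (DESeq2) and 5 (limma voom) genes at 0.1 uM. Genes whose 3 TAL libraries all lay on one side of the 3 DMSO distal libraries made up 11.5% (higher) and 4.39% (lower) at 1 uM, and 3.51% and 5.94% at 0.1 uM. With the scaling from AMEX60DD identifiers alone these shares were 8.85% and 8.53% at 1 uM, and 6.62% and 6.84% at 0.1 uM. A count of 0 does not show that 0.1 uM TAL had no effect.

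Most of the genes lower at 1 uM than with DMSO were within 0.5 (log2) of their DMSO level at 0.1 uM. So was about the same share of all genes. The median of the mean levels of the 35 genes was 21.7 CPM with DMSO, 25.7 CPM at 0.1 uM and 5.95 CPM at 1 uM. Their median log2 fold change over DMSO distal was -2.02 at 1 uM and 0.04 at 0.1 uM, where the median over all genes was -0.01 at both doses. At 0.1 uM 26 of the 35 were within 0.5 of DMSO (log2), as were 69.3% of all genes. An unadjusted p under 0.05 (edgeR) was reached by 6 of the 35, a larger share than the 6.27% of all genes. Since a high DMSO level lowers the change at both doses, this is no independent evidence of an effect at 0.1 uM. The 0.1 uM changes over DMSO ran from -1.36 to 0.96. In 7 of the 35 the 0.1 uM and DMSO distal libraries did not overlap. Over all genes tested, 6.62% lay higher and 6.84% lower at 0.1 uM without overlap and with a mean of at least 1 CPM. The 34 genes lower at 1 uM than at 0.1 uM were at -1.92 over DMSO at 1 uM and 0.19 at 0.1 uM in the median, but these genes were chosen partly for a high 0.1 uM level.

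The genes higher at 1 uM than with DMSO differed among themselves at 0.1 uM. The median of the mean levels of the 17 genes was 7.31 CPM with DMSO, 11.4 CPM at 0.1 uM and 21.2 CPM at 1 uM. Their median log2 fold change over DMSO was 2.0 at 1 uM, or 1.65 with the 1 gene at 0 counts in DMSO set to its bound, and 0.63 at 0.1 uM. The 0.1 uM change, as a share of the 1 uM change on the log2 scale, was 0.25 to 0.75 in 11 of the 17, under 0.25 in 5 and over 0.75 in 1, AMEX60DD025503, which was higher at 0.1 uM than at 1 uM. In 1 gene the 0.1 uM level was below DMSO, by a log2 fold change of -0.24. At 0.1 uM 5 of the 17 were within 0.5 of DMSO, and 11 had an unadjusted p under 0.05, against 6.27% of all genes. Since a low DMSO level raises both values, the 17 genes are no independent evidence of an effect at 0.1 uM. The difference in course between the 17 and the 35 genes was not tested.

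AMEX60DD009927 stood at a separate level at each dose. It was at 1.18, 5.10 and 3.01 CPM with DMSO, at 21.8, 22.0 and 24.7 CPM at 0.1 uM and at 54.9, 50.8 and 51.4 CPM at 1 uM. The 3 groups did not overlap, though a lack of overlap between 1 uM and DMSO was a condition of its choice. It was also picked among the genes without overlap between 0.1 uM and DMSO, so that separation was a condition too. The log2 fold change over DMSO was 4.07 at 1 uM (SE 0.439, adjusted p 0.0319 by edgeR, and 4.01 with adjusted p 0.123 without 1 uM replicate 1) and 2.87 at 0.1 uM (SE 0.419, adjusted p 0.313 by edgeR), and that of 1 uM over 0.1 uM was 1.20 (SE 0.389, adjusted p 0.728 by edgeR). AMEX60DD016524, also called higher at 1 uM than with DMSO (log2 fold change 3.89, SE 0.457, adjusted p 0.0399 by edgeR, and 3.98 with adjusted p 0.123 without 1 uM replicate 1), was at 1.06, 3.43 and 2.55 CPM with DMSO, a range that overlaps the 0.1 uM libraries. Of these 2 genes 1 thus had no overlap with DMSO at 0.1 uM, where it was not called, and 1 overlapped.

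**Figure D4:**
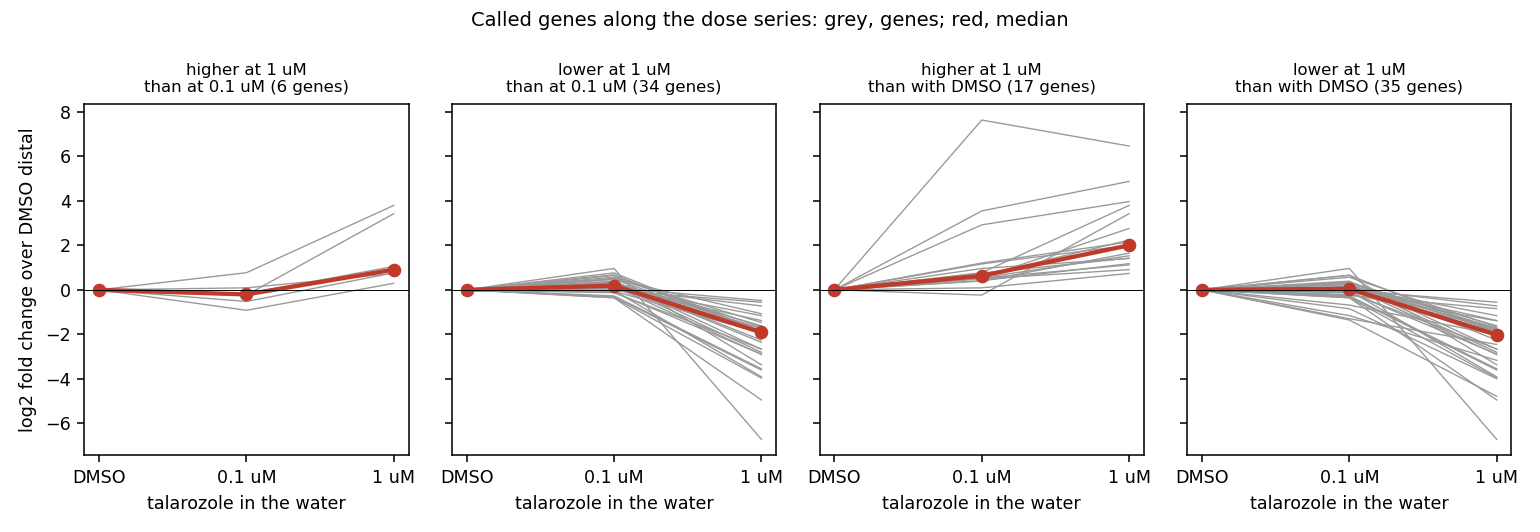
Log2 fold change over DMSO distal (vertical axis) at DMSO, 0.1 uM and 1 uM TAL for the genes called in the AMEX60DD-only fit, in 4 panels by the comparison that chose them. Grey lines are genes and the red line is the median. The median of the 35 genes lower at 1 uM than with DMSO is 0.04 at 0.1 uM, and that of the 17 higher genes is 0.63. The lines farthest from 0 include genes with a group at 0 counts, whose fitted values are no bounds.

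Genes without overlap between 0.1 uM and DMSO distal libraries were also ranked by p. Among the first of them, AMEX60DD025503 was at 3.16, 1.42 and 2.25 CPM at 0.1 uM. It had 0 counts in every DMSO distal library, so that its 0.1 uM mean was at least 6.44-fold higher (adjusted p 0.304 by edgeR). It was at 0.848, 0.924 and 1.54 CPM at 1 uM, so that it was not higher at the higher dose. AMEX60DD044318 had 0 counts in all 6 TAL libraries and 12.6, 4.26 and 3.83 CPM in DMSO distal libraries, so that it was at least 19.4-fold lower with 0.1 uM TAL (unadjusted p 4.92e-04, adjusted p 1 by edgeR).

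DMSO proximal libraries are in neither arm of the dose comparison. Of the 34 genes lower at 1 uM than at 0.1 uM, 23 (67.6%) had a DMSO proximal mean nearer the 1 uM than the 0.1 uM mean on the log2 scale, against 36.8% of all genes tested. These genes were chosen for a 0.1 uM level above the 1 uM level, so these shares are a description. In 28 of the 34 every proximal library was below every 0.1 uM library, while in 20 of the 34 the proximal and 1 uM libraries did not overlap either. The matching shares over all genes were not computed. The genes were chosen for a high 0.1 uM and a low 1 uM level, which can raise both counts. Neither count is thus read as a likeness to, or a difference from, proximal blastemas. Of the 6 genes higher at 1 uM, 0 had a proximal mean nearer 1 uM.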

How the data were processed

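Per the labels' protocols, a sequencing company extracted the RNA and prepared libraries for 150-bp reads. Reads were trimmed with Trimmomatic 0.38 and quantified with Salmon 0.13.1, per the submitters' processing notes, with the index, annotation, strand setting and filters not given in the sources used here. The authors deposited estimated counts per gene, 1 column per library, which need not be whole because Salmon divides shared reads, so near-identical genes are uncertain. Here they were rounded to whole numbers, and 3 per-sample columns that match no sample label were left out.

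Groups and replicate numbers came from the titles. Genes were filtered with filterByExpr and scaled with TMM in edgeR 4.0.16 (R 4.3.3), and tested with glmQLFit and glmQLFTest in 1 fit of the 12 libraries. An adjusted p under 0.05 counted as called. SE was taken as the size of the log2 fold change over the square root of its F statistic. The fit restricted to AMEX60DD identifiers was a listed alternative. Named genes were the called genes of largest change, with at least 1 CPM in a group and no overlap, filled up by smallest p. Other alternatives used DESeq2 1.42.0 and limma 3.58.1. Intervals and floors cover counting error only. The computations were tested on simulated counts, and settings of scaling, filter, test, depth, replicate block and left-out libraries were varied. The comparison, identifiers and rules were chosen with earlier results of these data known.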

Additional observations from a re-analysis of the deposited data

Results flagged for a closer look

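The effects of the 2 TAL doses differed from each other in 4 AMEX60DD genes (adjusted p under 0.05 in edgeR's direct contrast of the doses), which marks them for a closer look because the difference between doses was itself tested. All 4 were lower at 1 uM. The count was 0 with only the 6 libraries compared (1977 genes at an unadjusted p under 0.05 by edgeR). It was also 0 with the replicate block (1091 genes) and in 10 of the 12 fits that left out 1 library. The fit without 1 uM replicate 3 called 1 gene, which was none of the 4. The 1 uM libraries were also the deeper ones, and with all libraries thinned once to the smallest total the count was 2 with all identifiers, and 32 genes were called in place of 40 in the AMEX60DD-only fit.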

How the results depend on the processing

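The cause of the changes below was not tested. Called genes are given for 1 uM against 0.1 uM TAL and then, after a comma, for 1 uM TAL against DMSO distal, where the reported counts are 4 and 8. With no low-count filter they were 2, 4. Requiring at least 10 counts in every library, which removes genes low in any library whether they fell or rose, gave 25, 37. Fitting only the 6 libraries compared gave 0, 0 (1977 and 1318 genes at an unadjusted p under 0.05). They were 40, 52 without AMEX60DDU identifiers, 253, 275 with the DESeq2 Wald test, 44, 34 with limma voom, and 2, 4 after thinning. With DESeq2 size factors they were 6, 10. Leaving out 1 library gave 0 to 13 and 0 to 10, and 0 to 17 and 0 to 16 with the set of genes kept fixed, a setting chosen after seeing the data. For 0.1 uM TAL against DMSO distal the count stayed at 0 except for 41 (DESeq2) and 5 (limma voom).

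In the AMEX60DD-only fit, with settings chosen after seeing the data, the counts of 40 and 52 became 22 and 38 with no filter, 0 and 83 with the 6 libraries compared, 321 and 320 with DESeq2, and 321 and 143 with limma voom. Leaving out 1 library gave 0 to 72 and 5 to 62, and 2 to 88 and 5 to 64 with the set of genes kept fixed. Within these last ranges, leaving out DMSO distal replicate 1 and 2 gave 21 and 26 for 1 uM against 0.1 uM TAL, and leaving out 1 uM replicate 2 and 0.1 uM replicate 1 gave 7 and 32 for 1 uM TAL against DMSO distal. At 0.1 uM against DMSO distal the count of 0 became 1 with at least 10 counts in every library, 46 with DESeq2 and 1 with limma voom, and was 0 to 1 when 1 library was left out.

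Correlations over so few libraries did not show a pairing by replicate number, and they cannot exclude one. Deviations from the group means correlated at -0.00736 on average over 18 same-numbered pairs, 1 of them over 0.1, and at 0.00367 over 36 other pairs, and 3 of 12 libraries correlated best with their own number. With the replicate block the counts were 0, 0 and 0 in the 3 comparisons (1091, 850 and 517 genes at an unadjusted p under 0.05), and 13, 20 and 0 in the AMEX60DD-only fit.

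For 1 uM against 0.1 uM TAL, AMEX60DD021956, AMEX60DD012191, AMEX60DD016524 and AMEX60DD044347 kept their direction in each setting in which they could be fitted, as did AMEX60DD009927, AMEX60DD016524, AMEX60DD021956 and AMEX60DD012191 for 1 uM TAL against DMSO distal. Other genes were not followed across settings, apart from the unnamed pair of called genes. AMEX60DD021956 ranged from -4.98 to -4.26 and was called in 4 of 20 settings, and AMEX60DD012191 ranged from -3.68 to -3.22 and was called in 6 of 20. Requiring 5 CPM gave 3060 genes without overlap between the doses in place of 4768. Counts of 3 or fewer per library limit the lowest levels.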
